A study of Arabidopsis thaliana with 21 samples.

Results

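The genes described here are 39 *Arabidopsis* genes for proteins of the cytosolic ribosome. They were chosen by their AGI codes, and each entry of the iCLIP site lists whose transcript name carried 1 of these codes was taken. Of the 39 genes, 22 encode proteins of the large (60S) subunit and 17 encode proteins of the small (40S) subunit, with the 40S-bound scaffold RACK1A counted among the latter. At least 1 significant crosslink (XL) site was listed for 35 of them in at least 1 library, out of 4968 genes with a listed site in the 21 libraries. They held 4574 of 315156 listed entries (1.45%), at 2481 distinct positions, and none of these positions was also listed for another gene.

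iCLIP freezes contacts between a protein and RNA with UV light, and reverse transcription then stops next to the crosslinked nucleotide, which marks the contact. *At*GRP7 is a glycine-rich RNA-binding protein with a single RNA recognition motif, and its transcript oscillates with an evening peak under the control of the circadian clock. *At*GRP7-GFP plants express the fusion protein from the *AtGRP7* promoter in the *grp7-1* T-DNA mutant. *At*GRP7 R49Q-GFP plants express, also in *grp7-1*, a variant in which an arginine of the RNA recognition motif is exchanged, which impairs RNA binding. GFP-only plants express GFP from the same promoter in the Col-0 wild type. All plants were given as 18 days old, had spent 16 days at 20 °C under cycles of 12 h light with 12 h dark before the move to continuous light (LL), and were irradiated with 254 nm light at 500 mJ/cm2 at 24 h (LL24) or 36 h (LL36) of continuous light. Aerial tissue of bulked plants was used, and the complexes were recovered through GFP. At LL36 the fusion protein and GFP alone were each represented by 5 libraries and the R49Q variant by 2, and at LL24 every genotype had 3 libraries. The time points came from separate experiments, so that time and experiment cannot be told apart.

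The *At*GRP7-GFP libraries held 27112 to 85904 listed sites at LL36 and 8109 to 25115 at LL24, the *At*GRP7 R49Q-GFP libraries 12 to 2721, and the GFP-only libraries 21 to 293. Only positions that passed the authors' FDR of 0.05 are listed, so that a position missing from a list is not a count of 0. Transcripts of green tissue, *RBCS1A*, *LHCB1.3*, *LHCB2.1* and *CA1*, had sites in all 8 *At*GRP7-GFP libraries. The root genes *CASP1*, *SHR*, *WOX5*, *EXP7* and *COBL9* had none.

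Ribosomal proteins form, together with rRNA, the large subunit that joins amino acids and the small subunit that reads the mRNA. In plants nearly every ribosomal protein is encoded by several genes, whose products are almost identical. The mRNAs are short and abundant, above all in growing tissue.

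Sites were taken as reproducible if at least 4 of the 5 *At*GRP7-GFP libraries at LL36, or at least 2 of the 3 at LL24, listed the same base. At LL36, 22 of the 39 ribosomal protein genes (56.4%) had a reproducible site, with 191 such sites in all. Over all genes with a listed site in an *At*GRP7-GFP library at LL36, 18.6% had one (827 of 4435), and over all annotated nuclear coding genes 2.99% had one. Among the 35 ribosomal protein genes listed, the share was 62.9%. It was 13 of 22 for the 60S genes, with 140 sites, and 9 of 17 for the 40S genes, with 51 sites. None of the 22 had a reproducible site in either control genotype, so that all 22 counted as candidate targets (background 18.6%, 823 of 4435, and 2.98% of the coding genes). The control libraries at LL36 were shallow, with 12 to 532 listed sites, and could remove few genes. Without the controls the count was 22 as well, so that candidate status adds little here. The 22 transcripts had a median of 6.5 reproducible sites each, against 7 over all transcripts with such a site. In the most demanding reading, listing in all 5 libraries, 33 sites in 10 genes were left.

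A wider list of 179 other genes annotated as cytosolic ribosomal proteins served as a comparison. Of these, 65 had a reproducible site at LL36 (36.3%) and 33 at LL24 (18.4%). The corresponding shares of the 39 genes were 56.4% and 17.9%. The 39 were chosen with earlier results of these libraries known, and no test was made on this difference.

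**Figure D1:**
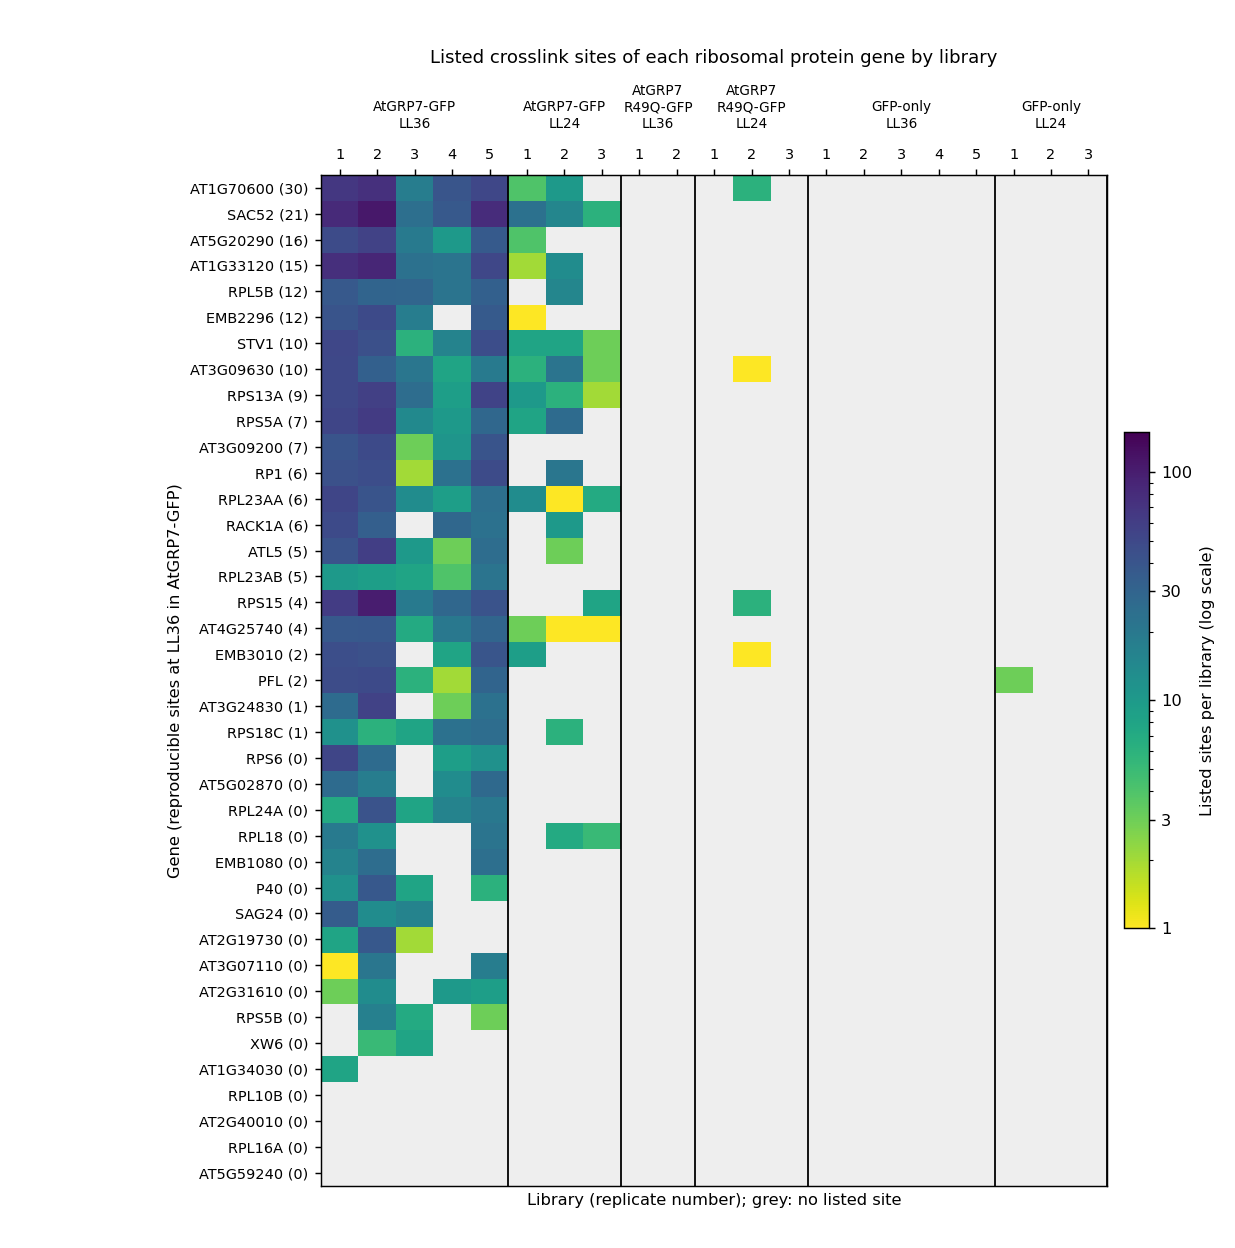
Listed XL sites (colour, log scale) of the 39 ribosomal protein genes (rows, ordered by their reproducible sites at LL36, given in brackets) in the 21 libraries (columns, grouped by genotype and time). Grey fields hold no listed site; 35 genes had a site in an *At*GRP7-GFP library at LL36, 4 in an *At*GRP7 R49Q-GFP library and 1 in a GFP-only library.

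AT1G70600 had the most reproducible sites, 30. It is annotated as a member of the L18e/L15 superfamily, and its closest annotated match is *RPL27AB*, a 60S protein gene. The 5 *At*GRP7-GFP libraries at LL36 listed 66, 75, 18, 40 and 52 sites in it, and the 3 libraries at LL24 listed 4, 10 and 0. All LL36 libraries lay above all LL24 libraries, but these numbers are not scaled for depth. The LL36 libraries also listed more sites in all, 27112 to 85904 against 8109 to 25115. Of its 30 sites, 22 lay in the 3′ UTR and 8 in the coding region, and 7 were listed in all 5 libraries.

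*SAC52*, also known as *RPL10A*, encodes L10, a 60S protein that joins late in the assembly of the subunit. It had 21 reproducible sites at LL36, of which 20 lay in the 3′ UTR and 1 in the coding region. The LL36 libraries listed 83, 108, 24, 37 and 79 sites, and the LL24 libraries 23, 15 and 6. The highest LL24 library came close to the lowest LL36 library. With 8 reproducible sites, all in the 3′ UTR, *SAC52* also had the most of the genes at LL24.

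AT5G20290, annotated in the S8e family of 40S proteins, had 16 reproducible sites (10 in the 3′ UTR, 6 in the coding region) from 48, 56, 19, 10 and 36 listed sites per LL36 library. At LL24 only replicate 1 listed sites in it, 4 in number.

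AT1G33120, annotated in the L6 family of the 60S subunit, had 15, 13 of them in the 3′ UTR. The LL36 libraries listed 77, 87, 23, 22 and 52 sites, and the LL24 libraries 2, 13 and 0. This gene is nearly a copy of *PGY2* (AT1G33140), and of its spliced transcript only 42.5% of the 30-nt windows occur once in the genome. In its 3′ UTR all windows are unique, in the coding region 19.3%. *PGY2* itself had 14 reproducible sites at LL36.

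*RPL5B* and *ATL5* (also *RPL5A*) encode L5, which binds the 5S rRNA. *RPL5B* had 12 reproducible sites, 11 of which lay in the 5′ UTR. Its listed sites varied little between the LL36 libraries, at 37, 30, 29, 22 and 32. *ATL5* had 5, all in the 3′ UTR, from 42, 59, 10, 3 and 25 listed sites.

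*EMB2296* (L2 family, part of the catalytic core of the 60S subunit, named for its need in embryo development) had 12 reproducible sites, all in the 3′ UTR. The LL36 libraries listed 41, 49, 18, 0 and 36 sites, so that each of its reproducible sites came from the 4 libraries other than replicate 4. At LL24 the libraries listed 1, 0 and 0.

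AT3G09630 (L4/L1 family, whose protein lines the exit tunnel for the nascent chain) had 10 sites, all in the 3′ UTR, and 5 of these were listed in all 5 libraries. The LL36 libraries listed 51, 32, 21, 8 and 19 sites, and the LL24 libraries 6, 22 and 3, so that the groups overlapped.

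*STV1* (also *RPL24B*, a 60S protein that helps ribosomes reinitiate after upstream open reading frames) had 10 sites in 3 regions, 6 in the coding region, 3 in the 5′ UTR and 1 in the 3′ UTR. The LL36 libraries listed 52, 44, 6, 16 and 46 sites, and the LL24 libraries 8, 8 and 3.

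*RPS13A* (40S) had 9 reproducible sites, 5 in the coding region and 4 in the 3′ UTR, from 51, 58, 25, 9 and 55 listed sites. *RPS5A* (40S), which is needed for cell division in the embryo, had 7 in the 3′ UTR from 53, 63, 14, 10 and 28 listed sites, and AT3G09200, in the L10 family to which the stalk protein P0 belongs, had 7 in the 3′ UTR from 41, 49, 3, 11 and 41. In both, the deepest 2 libraries (replicates 1 and 2) listed the most sites or shared that place.

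The other 10 transcripts had 1 to 6 reproducible sites. Of the 60S genes, *RP1* (also *RPL3A*) and *RPL23AA* had 6 each, *RPL23AB* 5 and AT3G24830 (L13 family) 1. Of the 40S genes, *RPS15* and AT4G25740 (S10 domain) had 4 each, *EMB3010* (S6, a phosphorylation target of TOR signalling) and *PFL* (S18, named for its pointed first leaves) 2 each, and *RPS18C* 1. RACK1A, a scaffold of repeated WD40 units on the head of the 40S subunit, had 6, 4 of them in the 5′ UTR and 2 in the coding region. The 4 genes with the most sites together held 82 of the 191 (42.9%).

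The positions at LL36 fell into 38 groups when sites of 1 gene within 10 nt of each other were joined. Of these groups, 20 belonged to 3′ UTRs, 10 to coding exons and 8 to 5′ UTRs, and 10 consisted of a single position. Some windows are given to show the sequence around the contacts in each region, centred on the base of a group that was listed in the most libraries and, among equals, had the highest mean count. Each holds 10 nt on either side of the crosslinked base, which is in capitals, read 5′ to 3′ along the spliced RefSeq model on the TAIR10.1 build. The first set holds groups in 3′ UTRs, where most sites lay:
SAC52, chr1:4889539-4889559, plus strand: uuuuugugacUcuuuuguuua
SAC52, chr1:4889488-4889508, plus strand: ucucugguguUguuuuaaguu
AT1G70600, chr1:26621025-26621045, minus strand: uuuguuggauUuugauaaaug
AT1G70600, chr1:26621087-26621107, minus strand: uuguugucuuUuggauuuugg
AT1G33120, chr1:12012309-12012329, plus strand: aaaccuugccUuuuuuuuguu
EMB2296, chr2:7838216-7838236, plus strand: cuguguuuccUuuugaaccuc
AT3G09630, chr3:2955514-2955534, plus strand: ucuuugggugUcuggauauca
AT5G20290, chr5:6851547-6851567, minus strand: uguuuuugucUuggauuuucu
RPS5A, chr3:3778053-3778073, minus strand: uuuuaugaagUuuauuucguc
RPS13A, chr4:38234-38254, plus strand: uuuuccggaaUcuuaugcucc

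The second set holds the groups in 5′ UTRs of *RPL5B*, RACK1A and the *RPL23A* pair:
RPL5B, chr5:15903320-15903340, plus strand: uuugcgccucUugccaucuuu
RACK1A, chr1:6222290-6222310, plus strand: aacccuaguuUcagaggcauc
RPL23AA, chr2:16475020-16475040, plus strand: auuucgugugUgaagaaucau
RPL23AB, chr3:20500398-20500418, plus strand: cucuaggguuUcuguuucgcc

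The third set holds the groups of 5 or more sites in coding exons:
AT1G70600, chr1:26621285-26621305, minus strand: caacaugguuUcuucaagguu
STV1, chr3:19661329-19661349, minus strand: uuuucuuguuUcuuaacucaa
RPS13A, chr4:37274-37294, plus strand: aaaggguauuUcagccucugc
AT5G20290, chr5:6852872-6852892, minus strand: uucucgugacUcuauccacaa

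In every window of these sets the crosslinked base is a U, in most of them within or beside a run of further U and C. Over all 191 sites, 157 were at U (82.2%), 12 at A, 11 at C and 11 at G. In the regions that hold the sites, U made up 38.0% of the bases. Of all listed member positions of a library, reproducible or not, 61.2% ± 3.9 (SD, n = 5) were at U. The reproducible sites of all other transcripts were at U in 57.8% of 18216 exonic positions. As background, UV light crosslinks U more readily than other bases.

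U and C together made up 63.2% of the bases within 10 nt of the 191 sites, against 55.3% in the whole regions that hold them, an excess of 7.90 percentage points. Calculated per library over all listed positions, the excess was 6.33 ± 1.04 percentage points (SD, n = 5), with a positive value in 5 of 5 libraries. By region, the excess around the reproducible sites was 12.3 points in coding exons, 7.35 in 3′ UTRs and 5.51 in 5′ UTRs. Per library over all listed positions it was 7.32 ± 2.80 points in coding exons, 5.61 ± 1.77 in 3′ UTRs and 6.95 ± 1.56 in 5′ UTRs (SD, n = 5 each), so that the order of the regions was not the same in both calculations. For the reproducible sites of the other transcripts the excess was 8.51 points. At LL24, over 33 sites, the excess was 4.87 points, and for the 5 sites in the 5′ UTR of *RPL23AA* it was -11.6 points.

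The counts at these sites were low. The highest belonged to RACK1A, at the 5′ UTR position given above, with 22.2 ± 4.1 crosslinks (SD, n = 4 listing libraries). The coding group of AT1G70600 reached 10.8 ± 5.5 (SD, n = 4), the 5′ UTR group of *RPL5B* 10.2 ± 5.1 (SD, n = 5), the 5′ UTR group of *RPL23AA* 9.75 ± 4.03 (SD, n = 4, at a base upstream of the centre of its window) and the 3′ UTR group of AT1G70600 nearer the transcript end 9.0 ± 4.6 (SD, n = 5). At the strongest site of *SAC52* in the group nearer the transcript end the counts were 6.0 ± 2.9 (SD, n = 4). These means leave out libraries that did not list the site.

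By region, 126 of the 191 sites lay in 3′ UTRs (66.0%), 33 in coding exons (17.3%), 32 in 5′ UTRs (16.8%) and none in introns. The reproducible sites of all other transcripts lay in 3′ UTRs for 48.3%, in coding exons for 35.9%, in 5′ UTRs for 12.8% and in introns for 2.94%. For the 22 genes 3′ UTRs made up 26.2% of the length of the spliced transcripts, and the sites had a density of 19.6 per kb in 3′ UTRs, 10.5 in 5′ UTRs and 2.19 in coding exons. No entry of the 39 genes in any library was named as intronic. When sites within 10 nt were joined, the 3′ UTR share was 52.6% and the coding share 26.3%.

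The shares were also taken over all listed sites of each library. At LL36, 62.3%, 64.0%, 75.2%, 46.1% and 60.02% of the ribosomal protein sites lay in 3′ UTRs in replicates 1 to 5, with a mean of 61.5% ± 10.4 (SD, n = 5), against 43.3% ± 2.5 for all other transcripts. The share of the ribosomal protein genes was the higher one in 5 of 5 libraries. In coding exons it was 23.7% ± 7.2 against 41.4% ± 3.4, and lower in all 5 libraries. In 5′ UTRs it was 14.8% ± 4.9 against 12.5% ± 1.2, and higher in 3 of 5. At LL24 replicate 3, with 35 sites in these genes, stood apart: 34.3% of them lay in 3′ UTRs, against 78.0% and 78.7% in replicates 1 and 2.

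**Figure D2:**
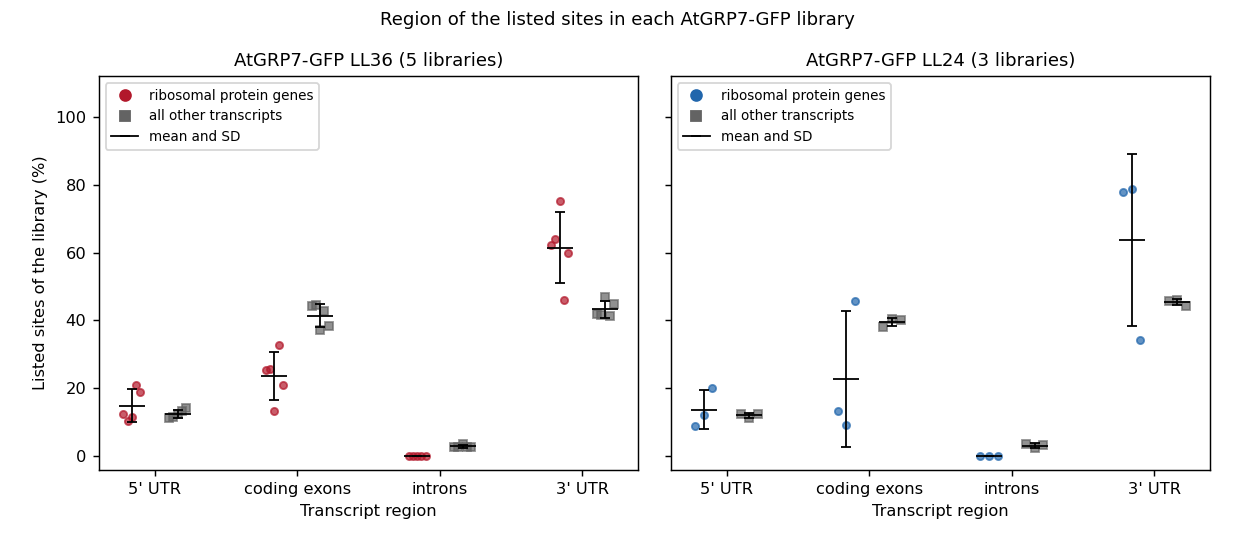
Share of listed XL sites (y axis, %) in each transcript region (x axis) for the 39 ribosomal protein genes (circles) and all other transcripts (squares), each point being an *At*GRP7-GFP library, with mean and SD. At LL36 the 3′ UTR share of the ribosomal protein genes (46.1% to 75.2%) was above that of the other transcripts in each of the 5 libraries, and at LL24 in 2 of 3.

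The 126 sites in 3′ UTRs at LL36 belonged to 16 genes. They lay between 45 and 157 nt after the last coding base, with a median of 100.5 nt and quartiles of 72 and 130.75 nt. This was 138 to 302 nt before the annotated transcript end, in 3′ UTRs of 261 to 354 nt. The 9062 sites in 3′ UTRs of the other transcripts had a median of 91 nt after the coding region, with quartiles of 56 and 130 nt. Of these, 68.7% fell between 45 and 157 nt, limits that the ribosomal protein sites themselves set. The median position was 32.6% of the way through the 3′ UTR for the ribosomal protein genes and 30.5% for the others. The centre of these positions was thus close to that of the other transcripts, while sites close to the stop codon or far beyond it were not among theirs. In *SAC52* the sites fell into a group 89 to 103 nt after the coding region and a group 131 to 157 nt after it, and in AT1G70600 into groups at 67 to 78 nt and 119 to 147 nt.

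The 32 5′ UTR sites of 8 genes lay 70 to 10 nt before the start codon, and between nt 37 and nt 206 of the annotated transcript. In *RPL5B* they lay 40 to 23 nt before it and in RACK1A 25 to 14 nt before it, and in RACK1A a further 2 coding sites followed at 18 and 19 nt after the first coding base. In *RPL23AA* they lay 27 to 10 nt, and in *RPL23AB* 47 to 39 nt, before the start codon. In coding exons, groups lay near the start codon in AT5G20290 (7 to 20 nt after its first base), *RPS13A* (31 to 39 nt) and *PFL* (37 and 38 nt), and further in the body in *STV1* (90 to 105 nt) and AT1G70600 (312 to 325 nt).

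Sites were found in a single region in 12 of the 22 genes, in 7 of them within the 3′ UTR, in 3 within the 5′ UTR and in 2 within coding exons, and the other 10 genes had sites in at least 2 regions.

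**Figure D3:**
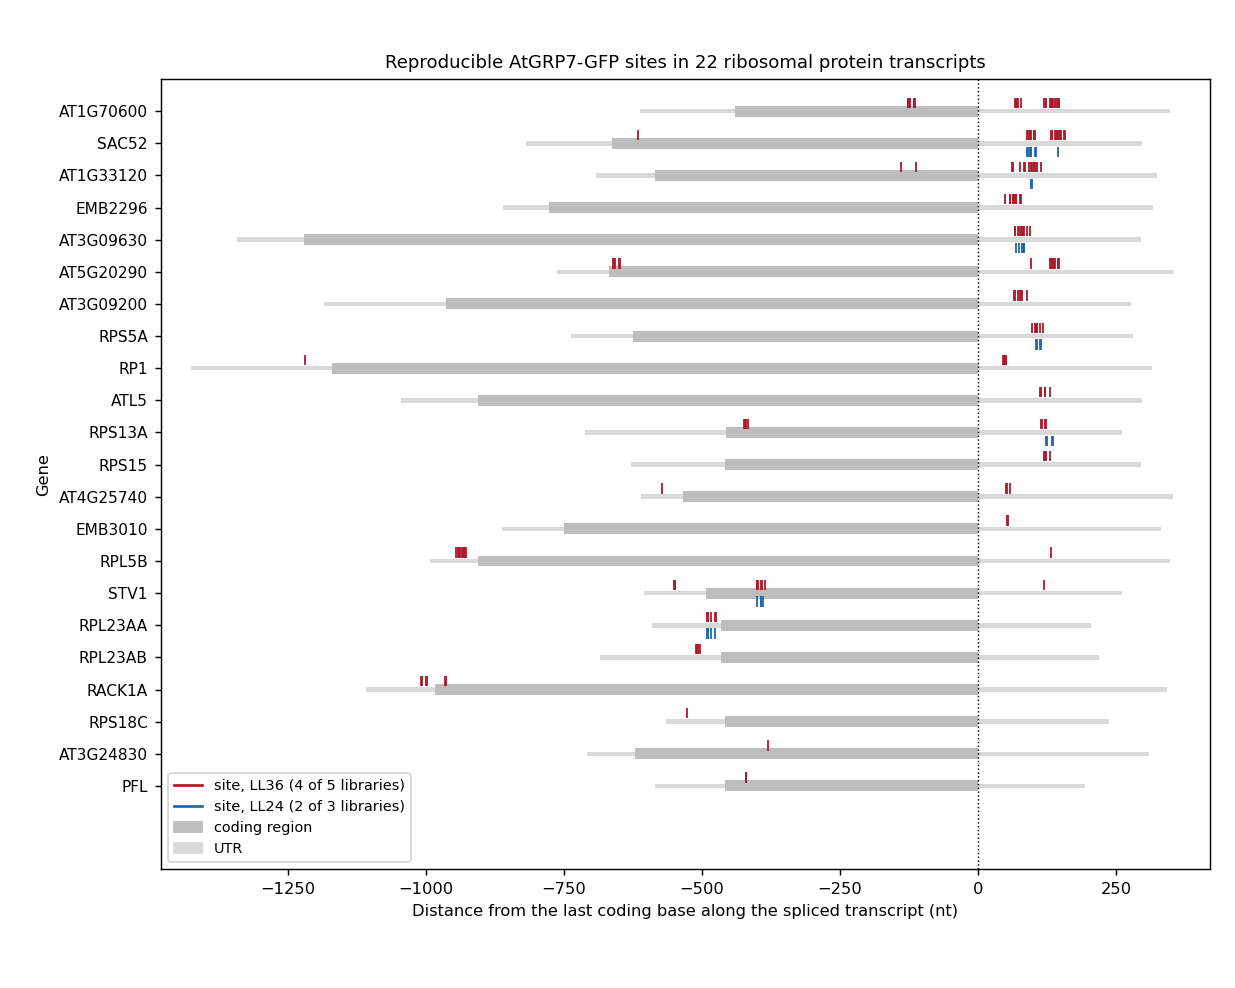
Reproducible *At*GRP7-GFP XL sites (LL36 red, above the line; LL24 blue, below it) on the spliced transcripts of the 22 ribosomal protein genes (y axis), with distance from the last coding base in nt (x axis), coding regions as thick and UTRs as thin bars. The 3′ UTR sites at LL36 lie 45 to 157 nt after the coding region.

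Within the 39 genes, members of 1 family often differed. There are 11 families with at least 2 of the 39, and in 8 of these families a single gene had reproducible sites at LL36. With 22 of the 39 genes bound, the number of such families expected without any link to family was not computed. In the L4/L1 family AT3G09630 had 10 and AT5G02870 none, although AT5G02870 had 65 listed positions and sites in 4 of 5 libraries (26, 18, 0, 13 and 27). In the L10 family *SAC52* had 21, *SAG24* (also *RPL10C*, named for its rise in senescence) none from 35, 13, 16, 0 and 0 listed sites, and *RPL10B* had no listed site in any library. In the L24 family *STV1* had 10 and *RPL24A* none, although *RPL24A* was listed in all 5 libraries with 7, 42, 8, 16 and 20 sites. In the S5 pair *RPS5A* had 7 and *RPS5B* none, with 0, 17, 7, 0 and 3 listed sites. In the S6 pair *EMB3010* had 2 and *RPS6* none, from 53, 26, 0, 9 and 12. In the S8e pair AT5G20290 had 16 and AT5G59240 had no listed site. Both genes of the L5 and the L23A pairs had sites, those of *RPL5B* mostly in the 5′ UTR and those of *ATL5* in the 3′ UTR, where *RPL5B* had 1, and those of L23A in the 5′ UTR of both. In the S18 family *PFL* had 2 and *RPS18C* 1, while AT1G34030 was listed in replicate 1 alone, with 8 sites. Relatives outside the 39 genes were also examined. Of the 22 bound genes, 9 have their closest annotated protein match outside the 39, and that match had reproducible sites at LL36 for 5 of them: *RPL27AB* with 20 for AT1G70600, *PGY2* with 14 for AT1G33120, AT5G52650 with 29 for AT4G25740, AT5G09510 with 5 for *RPS15* and AT3G60770 with 1 for *RPS13A*. For the other 4 it had none. The levels of these transcripts were not analysed here.

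Genes without a reproducible site numbered 17 at LL36. Of these, 13 had listed sites, and the position shared most widely was in 3 libraries for AT5G02870, *RPL24A*, *SAG24*, AT2G19730, AT3G07110, *RPS6*, AT2G31610 and *EMB1080*, that is 1 library short of the definition. It was in 2 libraries for *RPL18*, *RPS5B*, *XW6* and *P40*, and in 1 for AT1G34030. *P40* encodes SA, AT2G31610 an S3 protein at the entry of the mRNA channel. *XW6*, a 40S gene annotated in the S5 family, had 0, 5, 8, 0 and 0 listed sites, and only 60% of its 30-nt windows occur once in the genome, since near-identical copies exist. Among the 22 genes the median share of unique windows was 99.0%, and among the 13 it was 98.6%. The 4 genes without a listed site in any library were *RPL10B*, AT2G40010 (P0-like L10 family, as AT3G09200), *RPL16A* and AT5G59240 (S8e). Of their windows, 87.1% to 100% were unique. Reads that match several places are not in the lists.

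The comparison with GFP-only plants asks whether the sites in these transcripts come with *At*GRP7. At LL36 no site in the 39 genes was listed in any of the 5 GFP-only libraries, while the 5 *At*GRP7-GFP libraries listed 1214, 1399, 322, 384 and 948. The groups did not overlap. In a two-sided exact permutation test of log2(sites + 1) over all splits of these 10 libraries, 19 of the 39 genes were higher in *At*GRP7-GFP plants after Benjamini-Hochberg adjustment over 4497 transcripts (p = 0.00794, the smallest possible, adjusted p = 0.0482), and 0 were lower. Over all transcripts tested 16.5% were higher (741). The 19 are the genes that were listed in all 5 *At*GRP7-GFP libraries. All 35 genes tested were unlisted in every GFP-only library, so that listing in all 5 *At*GRP7-GFP libraries fixes the smallest p, and with 27112 to 85904 listed sites against 21 to 210 the count of 19 restates this listing and is no measure of enrichment over GFP-only plants. They include *RPL24A*, which has no reproducible site. *EMB2296* and RACK1A, both absent from 1 library, had p = 0.0476 and adjusted p = 0.176 in the same exact test. When the sites of each library were scaled to 1000 listed sites, none of the genes passed (0). Scaling cannot change the p of the 19, which stay unlisted in every GFP-only library and listed in all 5 *At*GRP7-GFP libraries. Only the adjustment over all transcripts changed, so that this 0 does not show whether depth accounts for the listing.

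The depth of the controls limits this comparison. Ribosomal protein genes made up 1.55% ± 0.31 (SD, n = 5) of the listed sites of *At*GRP7-GFP libraries at LL36. At this share the GFP-only libraries, with 31, 210, 79, 87 and 21 listed sites, would hold 0.479, 3.25, 1.22, 1.34 and 0.325 sites in these genes. The *At*GRP7 R49Q-GFP libraries at LL36, with 12 and 532 listed sites, would hold 0.186 and 8.22, and listed none. With 2 such libraries against 5 the smallest two-sided p is 0.0952, so that no test was made. Whether the share of listed sites in these genes differs between the genotypes was not tested.

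At LL24, sites in ribosomal protein genes did occur in the controls, in 1 library of each control genotype. GFP-only replicate 1 listed 3 positions in the coding region of *PFL*, with 1, 3 and 1 crosslinks, and no position of an *At*GRP7-GFP library at either time lay within 10 nt of them. Replicate 2 of *At*GRP7 R49Q-GFP, the deepest control library with 2721 listed sites, listed 14 sites in 4 genes with 1 to 5 crosslinks each. In AT1G70600 there were 6, all at positions also listed in 3 to 5 of the *At*GRP7-GFP libraries at LL36. In *RPS15* there were 6 in the 3′ UTR, at positions listed in 0 to 3 of these libraries. In AT3G09630 there was 1, at a position listed in 5 of 5 libraries at LL36 and 3 of 3 at LL24. In *EMB3010* there was 1 in the coding region, at a position listed in 2 libraries. At the share seen in *At*GRP7-GFP plants at LL24 this library would hold 16.2 sites in these genes. The 14 sites came from 1 library of 3, so that none was reproducible, and with 3 libraries against 3 the smallest p is 0.1.

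At LL24, 7 of the 39 genes (17.9%) had a reproducible site, with 33 sites in all, and all 7 were candidate targets. Over all genes with a listed site in an *At*GRP7-GFP library at LL24, 33.2% had a reproducible site (471 of 1418) and 31% were candidate targets (439). Over all annotated coding genes these shares were 1.7% and 1.58%. Of the 19 ribosomal protein genes listed at LL24, the 7 made up 36.8%, near this background. They were *SAC52* with 8, AT3G09630 with 6, *RPL23AA* with 5, *STV1*, *RPS5A* and *RPS13A* with 4 each, and AT1G33120 with 2. All 7 had reproducible sites at LL36 too, and 22 of the 33 positions were reproducible at both times. *RPL23AA* was listed with 13, 1 and 7 sites in the LL24 libraries and 53, 41, 13, 9 and 24 in the LL36 libraries. *RPS5A* was listed with 8, 26 and 0, and *RPS13A* with 10, 6 and 2.

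Of the 33 sites, 24 lay in 3′ UTRs (72.7%), 5 in the 5′ UTR of *RPL23AA* and 4 in the coding region of *STV1*. The 3′ UTR sites lay 69 to 145 nt after the coding region. Only 4 sites were listed in all 3 libraries, 2 in AT3G09630 and 2 in *STV1*. In *SAC52* the reproducible site with the highest mean count was the same base at both times, in the second *SAC52* window given above, with 6.25 ± 6.85 crosslinks at LL36 (SD, n = 4 listing libraries) and 4.0 ± 1.4 at LL24 (SD, n = 2 listing libraries).

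The time points were compared to see whether contacts with these transcripts differ between the phases of the rhythm. Ribosomal protein genes made up 0.697%, 0.653% and 0.432% of the listed sites of the 3 *At*GRP7-GFP libraries at LL24, with a mean of 0.594% ± 0.142 (SD, n = 3). At LL36 they made up 1.66%, 1.63%, 1.19%, 1.28% and 1.97%, so that the groups did not overlap. The numbers of genes with a listed site were 12, 15 and 8 at LL24 and 33, 34, 25, 25 and 31 at LL36. The LL24 libraries were the shallower ones. The deepest of them, replicate 2 with 25115 listed sites, was close in size to replicate 3 at LL36 with 27112, and these 2 listed 164 and 322 sites in 15 and 25 of the genes. Within each time point, too, the libraries with more listed sites had more, or as many, of the genes listed. Whether depth accounts for the difference between the times was not tested.

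**Figure D4:**
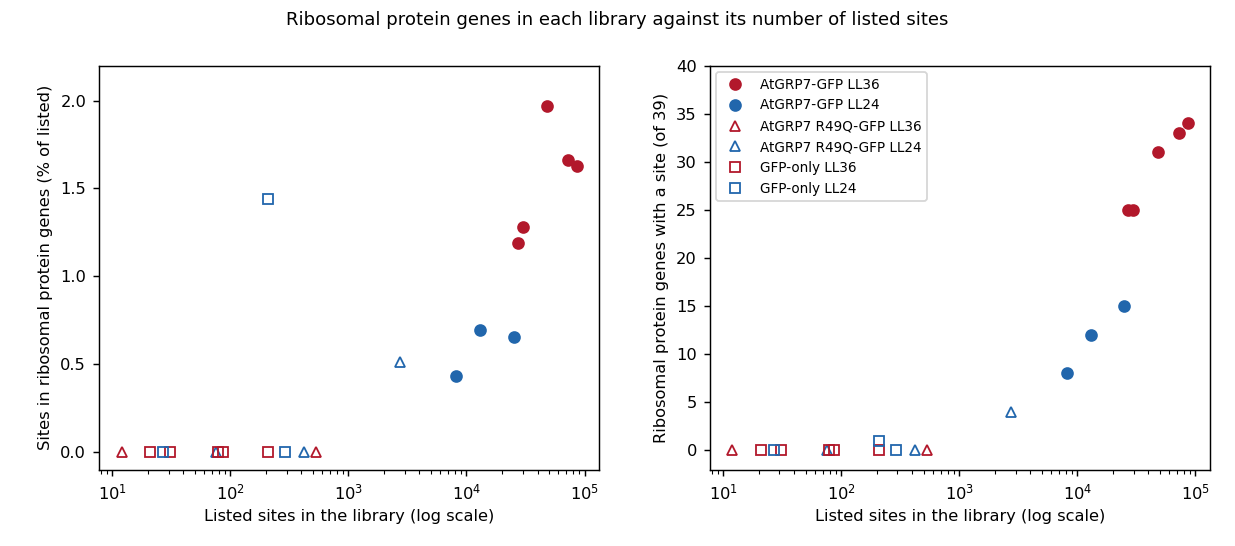
Share of the listed sites that lie in the 39 ribosomal protein genes (left, %) and number of these genes with a listed site (right) against the number of listed sites of each library (x axis, log scale), 1 point per library. The 5 *At*GRP7-GFP libraries at LL36 lie between 1.19% and 1.97%, above the 3 at LL24 (0.432% to 0.697%), and 2 control libraries, both at LL24, lie above 0.

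Crosslinks at listed sites were then summed per transcript and compared with edgeR's quasi-likelihood test over the 8 *At*GRP7-GFP libraries. Of the 39 genes, 29 passed the filter on low counts, which a gene can pass through the LL36 libraries alone. At an adjusted p under 0.05, 5 genes were higher at LL36, where 16.8% of the 1024 transcripts tested were (172), and 0 were lower, where 6.45% were (66). The 5 of 29 lie near the background of 16.8%, so that their number is not read as a result about ribosomal protein genes. Without adjustment 13 of the 29 had a p under 0.05, and the share over all transcripts was not computed for this count. It includes all 10 genes tested that had no listed crosslink in any LL24 library, so that it is not read as a difference between the times. The count of 5 depended on the tool and on single libraries, and the calls over all transcripts changed with it. DESeq2 called 14 genes higher (324 of 1024 transcripts) and limma on scaled sites 9 (213 of 1024). Without LL24 replicate 2 edgeR called 9 (253 of 1226), and without LL36 replicate 3 it called 9 (210 of 981). The 5 were AT1G70600, AT3G09200, *PFL*, *RPL23AB* and *RPL24A*.

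AT1G70600 is the only gene of the 5 with a crosslink listed at LL24. Its crosslinks numbered 175, 241, 41, 93 and 151 at LL36 and 6, 15 and 0 at LL24. In CPM (crosslinks scaled by edgeR to a common library size) this was 606 ± 168 (SD, n = 5) against 106 ± 93 (SD, n = 3), a log2 fold change of 2.38 ± 0.74 (SE) with an edgeR adjusted p of 0.0397. The lowest LL36 library (391 CPM) lay above the highest LL24 library (174 CPM), as was so for 243 of the 1024 transcripts tested. The median log2 fold change was 1.02 over all of these, and 0.51 over the 806 with a crosslink listed at LL24. LL24 replicate 3, which listed no site in AT1G70600, entered the fit as 0.

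The other 4 had no listed crosslink in any LL24 library and passed the filter through the LL36 libraries alone. An unlisted position is not a count of 0, so that their calls are not read as a difference between the times, and no fold change or p is given. AT3G09200 had 85, 126, 4, 24 and 98 crosslinks in the LL36 libraries, *PFL* 106, 116, 14, 3 and 56, *RPL24A* 9, 76, 14, 41 and 32 and *RPL23AB* 33, 17, 13, 15 and 46. For *PFL* the only LL24 library with sites was the GFP-only library above.

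None of the 7 genes with reproducible sites at both times passed the threshold (0 of 7), and the lowest edgeR adjusted p among them was 0.185, for AT1G33120. These 7 were picked by their listing at LL24, and 16.8% of all transcripts tested were called higher at LL36. The 0 of 7 is therefore not read as a result about them. *SAC52* had 652 ± 165 CPM at LL36 and 523 ± 312 at LL24 (log2 fold change 0.32 ± 0.47 SE, edgeR adjusted p = 0.680). AT3G09630 had 287 ± 86 and 272 ± 217 (0.03 ± 0.63 SE, edgeR adjusted p = 0.979), *RPS5A* 260 ± 80 and 273 ± 249 (-0.12 ± 0.85 SE, edgeR adjusted p = 0.942) and *STV1* 321 ± 140 and 297 ± 110 (0.13 ± 0.61 SE, edgeR adjusted p = 0.912). *EMB2296*, with 325 ± 183 and 7.94 ± 13.8, had an adjusted p of 0.0512 in the same edgeR test, just outside the threshold, and AT1G70600 lay just inside. At LL24 *EMB2296* had 1 listed crosslink, and 2 libraries listed none. Its p is therefore not read as a difference between the times.

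In bulk tissue a change in contacts and a change in transcript level cannot be told apart from these lists.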

How the data were processed

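The iCLIP sites of 21 libraries were used. In the methods of the study, reads were trimmed with cutadapt 1.9.1, freed of PCR duplicates by random barcodes and mapped with STAR 2.5.2a to TAIR10, keeping unique matches. The deposited counts are whole numbers of deduplicated reads whose first base follows the crosslinked position, not scaled for depth. The authors summed them over 15 nt on either side, compared them with 100 random placements in the same transcript region and deposited, per library, positions with an FDR below 0.05. The deposited lists sum to 109755 to 402170 crosslinks per *At*GRP7-GFP library at LL36, 27291 to 98235 at LL24, 34 to 7802 in *At*GRP7 R49Q-GFP and 33 to 989 in GFP-only libraries, counting a position under each transcript it is listed for. Libraries with fewer crosslinks list fewer sites, which limits the precision of every count.

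Positions were placed in the named gene model of the TAIR10.1 annotation, whose nuclear chromosomes are those of TAIR10. Introns were taken as named by the authors. Windows for base composition hold 10 nt on either side, and 30-nt windows of the spliced models were searched in the nuclear genome on both strands. The permutation test doubles the smaller tail. For the time points, crosslinks per transcript were fitted with edgeR 4.0.16 (TMM, filterByExpr, glmQLFit), with DESeq2 1.42.0 and limma 3.58.1 as alternatives, in R 4.3.3. Other steps used Python 3.11.15. Both tests were also run on simulated data with known changes. The simulated counts for the time points had less spread than the data. These runs therefore do not measure how well either test works on these libraries.

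The genes, gene lists, rules and alternatives were chosen with earlier results of these data known. Genes are described in detail if among the 10 with the most reproducible sites at LL36 (with ties) or the 5 at LL24, listed in a control, without a reproducible site, or past the threshold between the times. Names come from the annotation. The wider list of 179 genes holds coding genes annotated as structural constituents of the ribosome with a cytosolic ribosome location, and may include a few organellar proteins; 27 of the 39 genes carry these terms. Alternatives were the number of libraries required, tolerances of 1 and 3 nt, at least 2 crosslinks per position, merging, other windows and scales, other uses of the controls, a replicate block and omission of single libraries. Replicates are described as biological replicates.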

Additional observations from a re-analysis of the deposited data

Results flagged for a closer look

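Among 41 quantities compared over the 5 *At*GRP7-GFP libraries at LL36 (the 35 listed genes and summary values), 2 had a library far from the others, where chance gives about 1 in 20. AT2G19730, annotated in the L28e family of 60S proteins, had 38 listed sites in replicate 2 and 8, 2, 0 and 0 in replicates 1, 3, 4 and 5. AT1G34030, 1 of the S18 genes, had 8 listed sites in replicate 1 and none in the others. Neither gene has a reproducible site.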

How the results depend on the processing

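Of 169 values recomputed for 18 results, 118 kept their direction and size class. The number of ribosomal protein genes with a reproducible site at LL36, 22, was 10 when all 5 libraries were required, as was that of candidate targets, and was 22 to 29 with 1 library left out. The 191 sites became 501 with 3 of 5 libraries, 33 with all 5, 483 within 1 nt, 683 within 3 nt, 83 with at least 2 crosslinks, and 225 to 419 with 1 library left out, where 3 of 4 were required, with the highest values without replicates 3 (415) and 4 (419), the shallowest. At LL24 the 7 genes became 2 with all 3 libraries, 19 with at least 1, 4 with at least 2 crosslinks, and 14 to 18 with 1 library left out, where 1 of 2 sufficed. The 33 sites became 4, 253, 63 within 1 nt, 86 within 3 nt, 6 with at least 2 crosslinks, and 117 to 228. The 7 candidate targets became 15 with 1 fewer library, 2 with all, and 6 to 18 with 1 library left out.

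The 3′ UTR share at LL36 was 52.6% and the coding share 26.3% with merged sites, and the 5′ UTR share was 24.1% when each gene counted once. The 5′ UTR share at LL24 was 8.55% to 13.9% with 1 library left out. The pyrimidine excess was 4.89 points within 20 nt and 9.07 points with merged sites, and 7.51 to 8.65 with 1 library left out.

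The 19 genes above GFP-only fell to 0 per 1000 listed sites, and to 0 in each of the 10 fits without 1 library, where the smallest p rises to 0.0159. Per 1000 listed sites the p of the 19 cannot change, so that this 0 comes from the adjustment over all transcripts. The 5 genes higher at LL36 became 14 with DESeq2, 9 with limma on sites per 1000, and 4 to 9 with 1 library left out, 9 without LL24 replicate 2 and 9 without LL36 replicate 3. Over all transcripts the calls were 172 as reported, 324 with DESeq2, 213 with limma, and 253 and 210 without these 2 libraries. None was lower in any of these.

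Same-numbered libraries did not deviate together (correlations of -0.0269 to 0.0282). With the replicate number as a block 0 genes passed against GFP-only, where the smallest p over 5 pairs is 0.0625, and 0 between the times, where 4 passed in the same 6 libraries without the block.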
